A study of Mus musculus with 8 samples.

Results

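Neat1, Malat1, Miat, Rmst, Snhg11, Gas5, Sox2ot and Dlx6os1 are 8 mouse genes of long non-coding RNAs that were followed here across hippocampal RNA libraries. They are 8 of the 24421 genes in the deposited count tables. The GENCODE annotation used for positions gives Snhg11 the type protein-coding and the other 7 non-coding types. They were chosen by their CPM (the count of a gene scaled by the total count of the library) in the 4 groups of the study and by the difference between the 2 week 8 replicates. Those levels and that replicate difference are therefore given as descriptions, and no test below is independent evidence for these genes. All 8 passed the expression filter, which kept 15999 genes. RNA came from the hippocampus of wildtype C57BL/6J mice, labelled male, whose mothers received an intraperitoneal injection every day for 5 days from 14.5 days post coitum. IUGR offspring, named for intrauterine growth retardation, came from dams given dexamethasone, a synthetic glucocorticoid, at 1 mg/kg per day, and NS offspring came from dams given the same volume of normal saline. The 4 groups were IUGR at postnatal week 8, NS at week 8, IUGR at postnatal day 3 and NS at day 3, with 2 libraries in each. The labels do not say whether the libraries came from separate animals or litters, so p-values measure only the spread between these libraries. At week 8 that spread may be technical, and at day 3 it also includes a difference between replicates in markers of sex, given below.

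Long non-coding RNAs act as RNA rather than through a protein. Neat1 is the scaffold of paraspeckles, nuclear bodies that hold RNA and RNA-binding proteins, and Malat1, its neighbour on the chromosome, gathers in nuclear speckles next to splicing factors. Miat (also called Gomafu) and Snhg11 are found in neurons, Rmst and Sox2ot are tied to neural differentiation and to the transcription factor Sox2, Gas5 carries small nucleolar RNAs (snoRNAs) in its introns and can bind the glucocorticoid receptor in human cells, and Dlx6os1 (Evf2) is read from the Dlx5 and Dlx6 locus of GABAergic interneurons.

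Genes of hippocampal neurons were read in all libraries, which does not show that neighbouring regions were absent. Prox1, the transcription factor of dentate granule cells, was read at 34.1 to 66.6 CPM at week 8, against 10.8 to 27.6 CPM at day 3. Neurod6, a transcription factor of pyramidal neurons, was read at 133 to 198 CPM at week 8, against 364 to 544 CPM at day 3. Some libraries stood apart from the rest. Totals ranged from 13030277 to 18993050 counts per library. Replicate 2 of both week 8 groups lacked short structured RNAs: Rpph1, the RNA of ribonuclease P, had 2 counts in IUGR week 8 replicate 2 and 0 in NS week 8 replicate 2, against 872768 to 1119905 counts in the other 6 libraries. Replicate 2 of both day 3 groups went against its male label, with 5130 (IUGR) and 4998 (NS) counts of Xist, which is made from the inactive X chromosome of females, against 81 (IUGR) and 4 (NS) in replicate 1. Summed counts of the Y-linked genes Ddx3y, Eif2s3y, Kdm5d and Uty were 74 (IUGR) and 34 (NS) in replicate 2, against 5364 (IUGR) and 3783 (NS) in replicate 1. Results are therefore also given without both replicate 2 libraries of an age, an alternative that was added after the data were seen.

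The transcripts end in different ways. Libraries made with random primers from RNA depleted of ribosomal RNA do not need a poly(A) tail, and the labels name this preparation here. Whether the libraries described above as lacking short structured RNAs were prepared as labelled was not tested. The long Neat1 isoform and the mature Malat1 transcript are known to lack an ordinary poly(A) tail and to end instead at an A-rich tract that folds into a triple helix. The lines below give 80 bases each of transcripts in the GENCODE annotation of GRCm38, the build named mm10, 5′ to 3′ on the minus strand, with the poly(A) signal AATAAA, its variant form ATTAAA and the A-rich motif AAAGCAAAA in capitals.
Neat1-201, long isoform, last 80 bases, chr19:5824708-5824787: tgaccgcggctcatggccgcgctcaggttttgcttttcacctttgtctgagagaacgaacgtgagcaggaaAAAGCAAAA
Neat1-202, short isoform, last 80 bases, chr19:5842307-5842386: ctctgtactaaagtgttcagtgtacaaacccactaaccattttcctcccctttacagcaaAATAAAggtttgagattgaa
Malat1-201, inner A-rich tract, chr19:5795971-5796050: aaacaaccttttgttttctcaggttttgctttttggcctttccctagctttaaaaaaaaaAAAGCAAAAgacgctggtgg
Malat1-201, last 80 bases, chr19:5795690-5795769: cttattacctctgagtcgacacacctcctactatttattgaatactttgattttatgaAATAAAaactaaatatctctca
Miat-205, last 80 bases, chr5:112213228-112213307: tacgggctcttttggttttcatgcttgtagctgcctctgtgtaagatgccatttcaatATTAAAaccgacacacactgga
Rmst-210, last 80 bases, chr10:92081746-92081825: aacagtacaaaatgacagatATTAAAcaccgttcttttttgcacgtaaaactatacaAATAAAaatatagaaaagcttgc
The A-rich motif stood in the last 50 bases of 0.248% of 23372 annotated transcripts, 1 per gene, and AATAAA in those of 53.1%. In Malat1-201 the motif lay 301 bases before the annotated end, counted from the motif's first base, and in Neat1-201 it was the last sequence of the transcript. The count tables give Neat1 a length of 20771 bases, the span of the long isoform on chromosome 19 from 5824708 to 5845478, so reads of the short isoform fall in the same row and the isoforms were not separated. Malat1 spans 5795690 to 5802672 on the same strand, with 22035 bases between the genes.

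Malat1 had the highest level per kilobase of the 8 RNAs in every library but NS week 8 replicate 2, where Snhg11 stood at 263 CPM per kilobase and Malat1 at 140. Neat1 had the lowest level in 6 libraries. The exceptions were both week 8 replicate 2 libraries, in which Rmst fell below Neat1 per kilobase, at 0.612 CPM per kilobase against 1.39 for Neat1 in IUGR and 0.431 against 3.37 in NS. At week 8 the mean level of Malat1 was 596 ± 597 CPM per kilobase in IUGR and 725 ± 827 in NS (SD, n = 2 each), and that of Neat1 was 1.97 ± 0.825 in IUGR and 4.40 ± 1.45 in NS. At day 3 Malat1 and Gas5 stood first and second per kilobase without overlap with the next gene in both groups (IUGR 518 ± 41.8 and 114 ± 12.4, NS 418 ± 34.2 and 96.3 ± 11.2 CPM per kilobase). In NS at week 8 every gene overlapped the next in this order, so no order of neighbours can be read there.

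**Figure D1:**
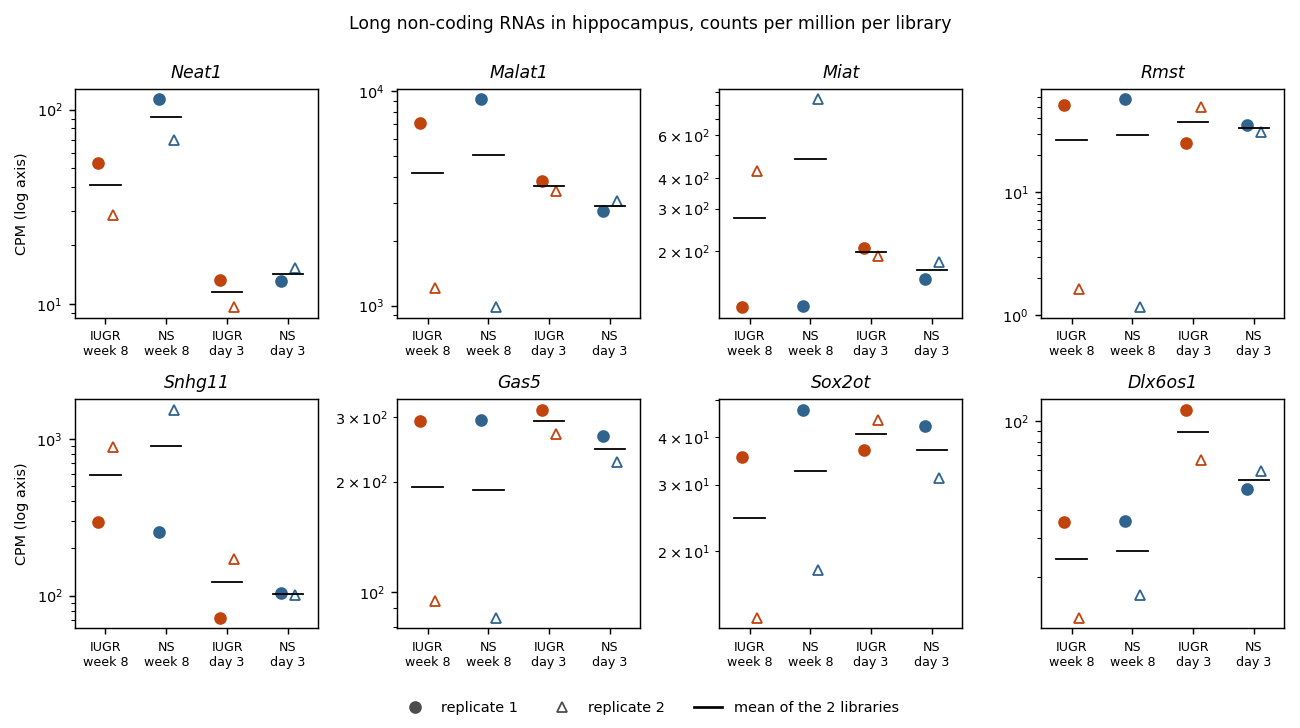
CPM values of the 8 RNAs in every library, on log axes that differ between panels, with circles for replicate 1, open triangles for replicate 2 and a line at the mean of the 2. The replicates lie far apart at week 8 for Malat1, Miat, Rmst and Snhg11, while all week 8 values of Neat1 (28.8 to 112.8 CPM) lie above all day 3 values (9.59 to 15.3 CPM).

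Neat1 was the member whose level separated the ages most clearly. It was read at 53.0 and 28.8 CPM in IUGR and at 113 and 70.1 CPM in NS at week 8, against 13.3 and 9.59 CPM in IUGR and 13.1 and 15.3 CPM in NS at day 3. All 4 week 8 libraries exceeded all 4 day 3 libraries. Week 8 was higher than day 3 by 1.94 ± 0.39 on the log2 scale in IUGR (SE; adjusted p = 0.0216) and by 2.71 ± 0.40 in NS (adjusted p = 0.011; edgeR quasi-likelihood test, Benjamini-Hochberg over all genes tested). No other member passed this test, and among all genes 16.8% passed in IUGR and 14.1% in NS. With a lone library in each week 8 group, without replicate 2, the difference was 2.32 in IUGR and 3.00 in NS. Without both day 3 replicate 2 libraries it was 1.71 and 2.82 but no gene passed in either group (adjusted p = 0.363 and 0.331; 2108 genes in IUGR and 1791 in NS had an unadjusted p under 0.05). The call in IUGR was also lost without IUGR day 3 replicate 1 or 2 (2.21 and 1.71, adjusted p = 0.118 and 0.156), without either NS day 3 library (1.94, adjusted p = 0.059 each) and without IUGR week 8 replicate 1 (1.43, adjusted p = 0.0536). The call in NS was lost without NS day 3 replicate 1 or 2 (2.59 and 2.82, adjusted p = 0.122 and 0.107).

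Between treatments, Neat1 was the only member whose IUGR libraries both lay below both NS libraries at week 8, which was so for 9.01% of all genes tested. The IUGR level was 0.47 times the NS level in replicate 1 and 0.411 times in replicate 2. The fitted log2 difference was -1.08 ± 0.38 (SE) and did not pass in edgeR (adjusted p = 1, unadjusted p = 0.0258). At day 3 the groups overlapped (-0.31 ± 0.38, adjusted p = 1), and the treatment effect at week 8 minus that at day 3 was -0.77 ± 0.53 (adjusted p = 1). Markers of other cell types moved with this difference: the summed level of 16 endothelial and mural cell genes was 246 and 229 CPM in IUGR, against 427 and 332 CPM in NS at week 8, and 14 of the 16 were lower in IUGR, with a median log2 difference of -0.81, against 0.02 over all genes. The corresponding sum at day 3 was 197 and 189 CPM in IUGR, against 286 and 265 CPM in NS, where Neat1 overlapped. All 14 meningeal and fibroblast genes were lower in IUGR at week 8, with a median of -0.84, though their sums overlapped (1262 and 738 CPM in IUGR, 2650 and 583 CPM in NS). The 12 choroid plexus genes summed to 348 and 202 CPM in IUGR, against 8875 and 223 CPM in NS, where replicate 1 stood apart. Oligodendrocyte genes summed to 5049 and 6182 CPM in IUGR, against 6191 and 6229 CPM in NS, and 2 of 18 were above 0. Sums were also lower in IUGR for astrocyte genes (8910 and 9006 against 9249 and 9363 CPM) and microglial genes (508 and 530 against 555 and 549 CPM). The medians of those lists were 0.03 and 0.02. The part of these tissues and cell types in the Neat1 difference was not tested. In tissue RNA fewer cells of a type and less RNA per cell cannot be told apart.

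The genes whose log2 levels ran most like Neat1 over the 8 libraries were Paqr5 (a progestin receptor family gene; r = 0.99), Mcam (an adhesion molecule of vessels; r = 0.988) and Carns1 (carnosine synthase; r = 0.988), chosen from 14575 named genes. These correlations share library, depth and the jump between ages, and carry no test. The same limits hold for the genes most like the other members, given below. Those correlations also carry the week 8 replicate gap, on which the members were chosen. Of 20 listed paraspeckle genes, 5 passed as lower at week 8 in IUGR and 1 in NS, and none passed as higher. Among all genes 7.48% passed as lower in IUGR and 6.44% in NS, so the count in NS was near that share. Nono, a core paraspeckle protein, fell by 1.14 ± 0.24 in IUGR (adjusted p = 0.0233) and by 1.12 ± 0.24 in NS (adjusted p = 0.0283) on the log2 scale. Its partner Sfpq fell by 1.11 ± 0.21 in IUGR (adjusted p = 0.0189), and the log2 change in NS was -0.50 (adjusted p = 0.16). Hnrnpk, which is needed for paraspeckles to form, fell by 0.89 ± 0.21 in IUGR (adjusted p = 0.0347), with -0.79 ± 0.21 in NS (adjusted p = 0.0533). The median over the list was -0.60 in IUGR and -0.43 in NS, against 0.02 and 0.04 over all genes. Between IUGR and NS no paraspeckle gene passed at week 8 (median -0.13, against 0.02 over all genes) or at day 3. The day 3 median was 0.24 against 0.01 over all genes, and 18 of 20 were above 0, beside 8310 of all 15999 genes.

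Malat1 showed the widest absolute gap between week 8 replicates. It was read at 7105 and 1214 CPM in IUGR and at 9146 and 981 CPM in NS at week 8, against 3820 and 3408 CPM in IUGR and 2749 and 3087 CPM in NS at day 3. Both day 3 IUGR libraries lay above both NS libraries, and the week 8 libraries lay on either side of all day 3 values. The log2 difference between week 8 and day 3 was 0.31 ± 1.08 in IUGR and 0.81 ± 1.08 in NS and did not pass (adjusted p = 0.863 and 0.64, edgeR). With week 8 represented by replicate 1 alone, Malat1 passed as higher at week 8, by 1.09 in IUGR (adjusted p = 0.00533) and 1.67 in NS (adjusted p = 0.00105). In that fit 5 of the 8 members passed in IUGR and 4 in NS, beside 41.4% and 37.9% of all genes, and each lone week 8 library was assumed to vary like the day 3 libraries. The genes most like Malat1 were Fastkd2 (a mitochondrial RNA-binding protein; r = 0.996), Arhgap5 (a GTPase-activating protein; r = 0.993) and Ptpn4 (a tyrosine phosphatase; r = 0.99) over the 8 libraries.

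Of 20 nuclear speckle and SR protein genes, the splicing factors beside which Malat1 gathers, 3 passed as lower at week 8 in IUGR and 2 in NS, and none as higher. The share of all genes that passed as lower was 7.48% in IUGR and 6.44% in NS. Srsf7 fell by 1.14 ± 0.19 in IUGR and by 0.90 ± 0.19 in NS on the log2 scale (adjusted p = 0.013 and 0.0271), and Srsf10 fell by 1.01 ± 0.21 in IUGR and by 0.79 ± 0.20 in NS (adjusted p = 0.0221 and 0.0489). Srsf1 fell by 0.94 ± 0.24 in IUGR (adjusted p = 0.0412), with -0.57 in NS (adjusted p = 0.152). In week 8 replicate 2 of both groups, none of these 20 genes was over 2-fold lower and 4 were over 2-fold higher. Among all genes 11.3% were over 2-fold lower and 9.53% over 2-fold higher. All 20 had a fitted difference above 0 between IUGR and NS at day 3, beside 8310 of all 15999 genes. Their median was 0.17 against 0.01 over all genes, and none passed.

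Miat and Snhg11 had the opposite replicate pattern. Miat was read at 118 and 430 CPM in IUGR and at 119 and 842 CPM in NS at week 8, against 206 and 191 CPM in IUGR and 155 and 181 CPM in NS at day 3. Replicate 1 of both week 8 groups lay below every day 3 library and replicate 2 above every one. Snhg11 was read at 295 and 894 CPM in IUGR and at 254 and 1545 CPM in NS at week 8, against 72.3 and 172 CPM in IUGR and 104 and 101 CPM in NS at day 3. All week 8 libraries of Snhg11 lay above all day 3 libraries. For both genes the IUGR level in week 8 replicate 2 was below the NS level (log2 differences of -0.97 for Miat and -0.79 for Snhg11), while in replicate 1 the log2 differences were -0.02 and 0.22.

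The fitted week 8 to day 3 difference of Miat depended on the week 8 libraries used. It was 0.57 ± 0.91 in IUGR and 1.56 ± 0.92 in NS with all libraries (adjusted p = 0.691 and 0.29). Without both week 8 replicate 2 libraries, with a lone week 8 library per group, it was -0.64 in IUGR and -0.47 in NS. Without NS week 8 replicate 1 alone it was 2.36 in NS. Snhg11 kept its direction but did not pass in edgeR, with 2.40 ± 0.94 in IUGR and 3.18 ± 0.97 in NS (adjusted p = 0.125 and 0.0754). Without both week 8 replicate 2 libraries the Snhg11 differences were 1.40 and 1.33. Snhg11 passed in DESeq2 on all 8 libraries, at 2.41 and 3.19 (adjusted p = 0.0198 and 0.00124). That fit passed 4354 genes in IUGR and 3901 in NS, against 2691 and 2263 in edgeR. Leaving out NS week 8 replicate 1 alone left Snhg11 at 2.40 in IUGR and gave 3.95 in NS. Leaving out NS week 8 replicate 2 alone left it at 2.40 in IUGR and gave 1.33 in NS. Day 3 IUGR replicate 2, the highest day 3 library of Snhg11, also had the highest summed level of 12 thalamus and habenula genes, at 573 CPM against 249 to 337 CPM in the other day 3 libraries; the part of neighbouring brain regions was not tested.

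Proteins that bind Miat or its repeated motif were given as fixed partners. Celf3, an RNA-binding protein of neurons, was read at 46.9 and 147 CPM in IUGR and at 32.3 and 213 CPM in NS at week 8, against 58.2 to 68.2 CPM at day 3, so that its week 8 replicates differed in the same direction as those of Miat. Sf1, the splicing factor that reads the branch point, differed likewise, with 45.3 and 118 CPM in IUGR and 46.7 and 172 CPM in NS at week 8, against 47.3 to 52.1 CPM at day 3. Qk, a splicing regulator best known in glia, was read at 437 and 301 CPM in IUGR and at 492 and 292 CPM in NS at week 8, against 216 to 260 CPM at day 3. None of the 3 passed in any comparison. The genes most like Miat were Atxn2l (an RNA-binding protein; r = 0.996), Slc44a2 (a choline transporter-like protein; r = 0.994) and Pabpn1 (nuclear poly(A)-binding protein; r = 0.993), and those most like Snhg11 were Sez6l2 (a neuronal membrane protein; r = 0.997), App (the amyloid precursor protein; r = 0.994) and Prrt3 (r = 0.994). Markers of excitatory and granule neurons shared this replicate pattern at week 8 in part. Of 16 genes, 8 were over 2-fold higher in replicate 2 of both groups and 1 was over 2-fold lower. Among all genes 9.53% were over 2-fold higher and 11.3% over 2-fold lower. The sums over 16 genes were 1971 and 7736 CPM in IUGR and 1846 and 8374 CPM in NS. Their part in the pattern of Miat and Snhg11 was not tested.

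The promoters of Miat and Snhg11 are shown because both RNAs were high in the same libraries. They run from 250 bases before to 50 bases after the gene start in RefSeq (GRCm38.p6), 5′ to 3′ on the gene's strand, with the GC box GGGCGG or its reverse CCGCCC in capitals.
Miat, chr5:112228899-112229198, minus strand: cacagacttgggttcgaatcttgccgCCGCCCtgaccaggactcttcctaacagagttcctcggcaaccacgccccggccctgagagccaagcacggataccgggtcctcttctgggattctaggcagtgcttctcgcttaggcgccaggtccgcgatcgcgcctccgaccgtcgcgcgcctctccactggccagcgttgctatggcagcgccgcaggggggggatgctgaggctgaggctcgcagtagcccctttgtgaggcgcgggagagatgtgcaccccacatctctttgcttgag
Snhg11, chr2:158375463-158375762, plus strand: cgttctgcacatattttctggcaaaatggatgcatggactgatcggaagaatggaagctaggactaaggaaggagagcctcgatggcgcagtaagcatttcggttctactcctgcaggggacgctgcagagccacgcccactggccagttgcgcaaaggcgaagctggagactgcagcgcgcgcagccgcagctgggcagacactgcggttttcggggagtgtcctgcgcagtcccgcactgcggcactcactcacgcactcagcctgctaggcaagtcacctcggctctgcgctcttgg
The Miat window held 1 GC box and the Snhg11 window none, and 35.7% of 32851 promoter windows held at least 1 on either strand. Both were richer in G and C than the median window (64.3% for Miat and 60.0% for Snhg11, against 52.7%). RefSeq windows were found for 5 of the 8 members, 7 windows in all. The 6-base core of the glucocorticoid response element, AGAACA or its reverse TGTTCT, was found in none of the 7 windows and in 19% of all windows. These letters describe the windows alone and say nothing about binding by the receptor. Nr3c1, the gene of that receptor, was read at 191 and 62.5 CPM in IUGR and at 181 and 72.4 CPM in NS at week 8, against 52.7 and 42.3 CPM in IUGR and 56.4 and 55.3 CPM in NS at day 3, and passed in no comparison.

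Rmst had the steepest replicate gap of the 8 at week 8. It was read at 51.5 and 1.65 CPM in IUGR (762 and 24 counts) and at 57.1 and 1.158 CPM in NS (744 and 22 counts), against 25.1 and 50.1 CPM in IUGR and 35.7 and 30.8 CPM in NS at day 3. Replicate 1 of week 8 lay above all day 3 libraries and replicate 2 below all of them. The high day 3 library, IUGR replicate 2, is the one with the highest thalamus and habenula sum given above. The log2 difference between week 8 and day 3 was -0.39 ± 1.69 in IUGR and -0.18 ± 1.69 in NS with all libraries, and 0.58 and 0.80 without both week 8 replicate 2 libraries, and it passed in neither fit (adjusted p from 0.104 to 0.951). Rmst lies on chromosome 10, from 92071037 to 92165170 on the minus strand, and its span holds the microRNA genes Mir135a-2 and Mir1251. The Mir135a-2 row had 0 counts in both week 8 replicate 2 libraries, against 0.676 CPM in IUGR replicate 1 and 0.998 CPM in NS replicate 1; a count of 0 allows up to 3 counts, or 0.206 CPM in IUGR replicate 2 and 0.158 CPM in NS replicate 2, counting error only. The genes most like Rmst were Ndufb8 (a subunit of respiratory complex I; r = 0.994), Il12rb2 (an interleukin-12 receptor chain; r = 0.993) and S100pbp (r = 0.992). Nedd1, a centrosome protein gene fixed as its chromosomal neighbour, was read at 5.14 and 3.70 CPM in IUGR and at 8.90 and 4.00 CPM in NS at week 8, against 9.13 to 12 CPM at day 3.

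Gas5 was nearly level across replicate 1 libraries and low in the 2 week 8 replicate 2 libraries. It was read at 292 and 94.6 CPM in IUGR and at 295 and 85.0 CPM in NS at week 8, against 314 and 270 CPM in IUGR and 266 and 226 CPM in NS at day 3. Both IUGR libraries lay above both NS libraries at day 3, by 0.24 and 0.26 on the log2 scale within replicates 1 and 2, and the fitted difference of 0.25 ± 0.67 did not pass (adjusted p = 1). The log2 difference between week 8 and day 3 was -0.49 ± 0.67 in IUGR and -0.35 ± 0.67 in NS, and 0.11 and 0.28 without both week 8 replicate 2 libraries (adjusted p of 0.217 or more in every case). The genes most like Gas5 were Birc2 (an inhibitor of apoptosis; r = 0.998), Sclt1 (a centriole protein; r = 0.995) and Zfp788 (a zinc finger gene; r = 0.995).

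Gas5 is degraded by nonsense-mediated decay when it is translated, and it belongs to the host genes of snoRNAs. Of 18 other snoRNA host genes, 5 passed as lower at week 8 in IUGR and 4 in NS, and none as higher, with medians of -1.01 and -1.03. The share of all genes that passed as lower was 7.48% in IUGR and 6.44% in NS. Snhg5 fell by 2.47 ± 0.36 in IUGR and by 2.19 ± 0.36 in NS on the log2 scale (adjusted p = 0.00945 and 0.0143), and Snhg1 fell by 1.83 ± 0.31 and 1.95 ± 0.32 (adjusted p = 0.0142 and 0.0137). Snhg7 fell by 1.50 ± 0.31 in IUGR and by 1.31 ± 0.31 in NS (adjusted p = 0.0236 and 0.038). In week 8 replicate 2 the summed level of the 18 genes was 146 CPM in IUGR, where replicate 1 had 325 CPM. It was 133 CPM in NS, where replicate 1 had 359 CPM. Of the 18, 6 were over 2-fold lower in both groups, beside 11.3% of all genes and 26.4% of annotated long non-coding genes. Among 10 nonsense-mediated decay factors 1 passed, Upf2, which rose by 1.15 ± 0.22 in IUGR and by 0.98 ± 0.22 in NS (adjusted p = 0.0191 and 0.0326). This count was near the share of all genes that passed as higher, 9.34% in IUGR and 7.7% in NS. Gas5 lies on chromosome 1 from 161034422 to 161038539 on the plus strand and overlaps Zbtb37, a zinc finger gene on the other strand. Zbtb37 was low in the same libraries, at 14.3 and 2.19 CPM in IUGR and 16.3 and 5.16 CPM in NS at week 8, against 31.2 to 36.3 CPM at day 3. Whether counting used strand is not given in the sources used here, so reads of overlapping genes cannot be told apart.

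Sox2ot and Dlx6os1, the RNAs of transcription factor loci, were lower in week 8 replicate 2 than in replicate 1 of each group. Sox2ot was read at 35.5 and 13.4 CPM in IUGR and at 47.3 and 17.8 CPM in NS at week 8, against 37.1 and 44.4 CPM in IUGR and 42.9 and 31.3 CPM in NS at day 3. Treatments overlapped at both ages. The log2 difference between week 8 and day 3 was -0.63 ± 0.58 in IUGR and -0.17 ± 0.58 in NS, and neither passed (adjusted p = 0.476 and 0.864). Sox2, the stem cell factor whose gene lies inside the Sox2ot span on chromosome 3 (34104270 to 34682619), was read at 44.6 and 26.3 CPM in IUGR and at 42.7 and 50.3 CPM in NS at week 8, against 54.3 and 71.2 CPM in IUGR and 56.5 and 49.3 CPM in NS at day 3. In NS week 8 replicate 2, therefore, Sox2ot was low and Sox2 was not. The genes most like Sox2ot were Rgs22 (a regulator of G protein signalling; r = 0.99), Zfp329 (r = 0.984) and Rftn1 (a lipid raft protein; r = 0.982).

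Dlx6os1 was read at 35.2 and 13.2 CPM in IUGR and at 35.8 and 16.5 CPM in NS at week 8, against 112 and 66.4 CPM in IUGR and 49.7 and 59.5 CPM in NS at day 3. All week 8 libraries lay below all day 3 libraries. The log2 difference between week 8 and day 3 was -1.78 ± 0.57 in IUGR and -1.04 ± 0.56 in NS and did not pass in edgeR (adjusted p = 0.0771 and 0.248). In DESeq2 on the same 8 libraries, where 4354 genes passed in IUGR against 2691 in edgeR, it passed as lower in IUGR (-1.78, adjusted p = 0.0136). It did not pass in NS (-1.03, adjusted p = 0.202). The edgeR difference in IUGR was -2.66 without IUGR week 8 replicate 1 and -1.78 without NS week 8 replicate 2. Without both week 8 replicate 2 libraries, with a lone week 8 library per group, it was -1.23 in IUGR and -0.59 in NS. At day 3 both IUGR libraries lay above both NS libraries, and the log2 difference of 0.71 ± 0.55 did not pass in edgeR (adjusted p = 1, unadjusted p = 0.242); IUGR was 2.26-fold NS within replicate 1 and 1.12-fold within replicate 2. Dlx1, an interneuron transcription factor gene on another chromosome, was highest in the same library, at 32.6 CPM in IUGR replicate 1 against 14.9 CPM in IUGR replicate 2 and 14.0 and 15.9 CPM in NS. The sum of 20 interneuron genes was lowest in that library, at 1092 CPM in IUGR replicate 1 against 1368 CPM in IUGR replicate 2 and 1400 and 1262 CPM in NS, and Gad1, which makes the transmitter GABA, was lowest there as well, at 104 CPM.

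Dlx6 and Dlx5, the protein-coding genes of the Dlx6os1 locus on chromosome 6, had under 5 CPM in every library. Dlx6 was read at 1.49 and 1.71 CPM in IUGR and at 0.614 and 4.00 CPM in NS at week 8, against 4.71 and 4.30 CPM in IUGR and 3.44 and 3.71 CPM in NS at day 3. In NS week 8 replicate 2 Dlx6 was thus not low, while Dlx6os1 was. Of the 20 interneuron genes, 2 passed as higher and 1 as lower at week 8 in each group. These shares were near those of all genes (9.34% higher and 7.48% lower in IUGR, 7.7% and 6.44% in NS). Most of the 20 lay below 0: 7 were above 0 in IUGR and 8 in NS, with medians of -0.76 and -0.41. Pvalb, a calcium-binding protein of fast-spiking interneurons, rose by 3.92 ± 0.88 in IUGR and by 5.90 ± 1.00 in NS (adjusted p = 0.0291 and 0.0157), and Vip, a neuropeptide, rose by 3.5 ± 0.56 and 2.69 ± 0.54 (adjusted p = 0.0115 and 0.0246). Lhx6, a transcription factor of migrating interneurons, fell by 1.67 ± 0.37 in IUGR and by 1.69 ± 0.37 in NS (adjusted p = 0.0279 and 0.0299). The genes most like Dlx6os1 were Xrcc6 (the DNA repair protein Ku70; r = 0.996), D10Wsu102e (r = 0.986) and Ireb2 (an iron-responsive RNA-binding protein; r = 0.983).

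**Figure D2:**
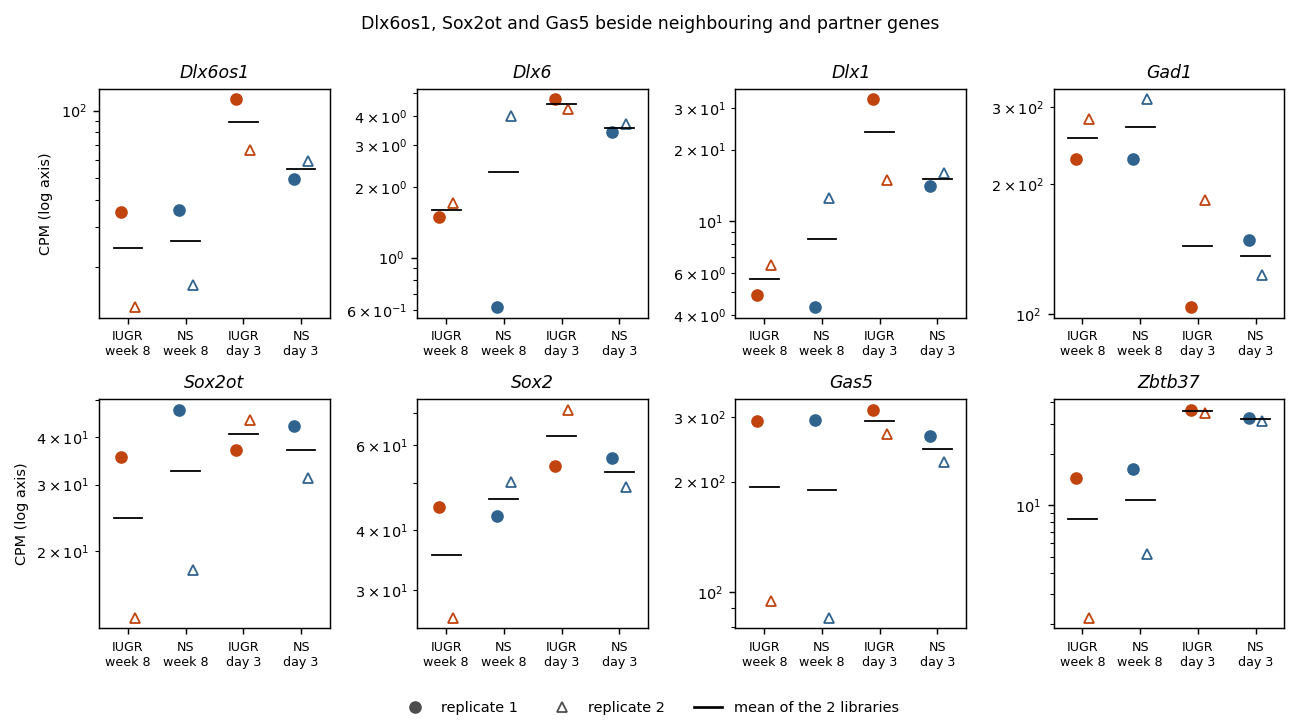
CPM per library, on log axes that differ between panels, of Dlx6os1 beside Dlx6, Dlx1 and Gad1, of Sox2ot beside Sox2 and of Gas5 beside Zbtb37, with circles for replicate 1, open triangles for replicate 2 and a line at the mean. Dlx1 and Dlx6os1 are both highest in IUGR day 3 replicate 1 (32.6 and 112 CPM), where Gad1 is lowest (104 CPM).

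Across the 8 RNAs, 5 were over 2-fold lower in replicate 2 than in replicate 1 of both week 8 groups, 2 were over 2-fold higher and Neat1 was neither. Among all genes 11.3% were over 2-fold lower in both groups and 9.53% over 2-fold higher. These shares stand beside the members' counts only as background, since the members were selected on this difference. The lower 5 were Malat1, Rmst, Gas5, Sox2ot and Dlx6os1, and the ratios of replicate 2 to replicate 1 corresponded, with a pseudocount of 1 CPM that shrinks low values such as those of Rmst, to log2 differences of -2.54 in IUGR and -3.20 in NS for Malat1, -4.33 and -4.73 for Rmst, and between -1.76 and -1.05 for Gas5, Sox2ot and Dlx6os1. For Miat the log2 differences were 1.86 in IUGR and 2.83 in NS, for Snhg11 1.6 and 2.62, and for Neat1 -0.85 and -0.66. Of the 15999 genes, 20 were at least as low as Rmst in both groups and 49 at least as low as Malat1, each count including the gene itself. Annotated long non-coding genes as a class, 701 of them tested, were over 2-fold lower in replicate 2 of both groups in 26.4% and over 2-fold higher in 6.85%. Their summed level was 22730 and 8938 CPM in IUGR and 29390 and 11210 CPM in NS at week 8, against 23020 to 24960 CPM at day 3.

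**Figure D3:**
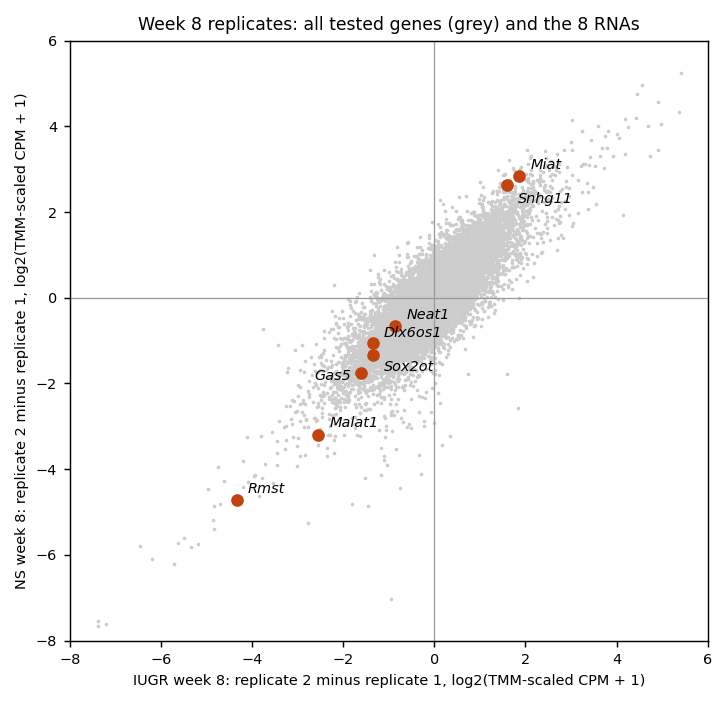
Log2 difference between replicate 2 and replicate 1 at week 8, in IUGR on the x axis and NS on the y axis, for 15991 of the 15999 tested genes (grey; 8 lie outside the axes) and the 8 RNAs (orange), on TMM-scaled CPM with a pseudocount of 1. The genes lie along the diagonal, with Rmst and Malat1 at the low end and Miat and Snhg11 at the high end.

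Set against treatment, none of the 8 passed in edgeR at either age or in the difference between ages, as was so for all genes (0% in each of the 3 comparisons). Among all genes 161 had an unadjusted p under 0.05 at week 8, 96 at day 3 and 82 for the difference between ages, and DESeq2 on all libraries also called none. At day 3, 4 of the 8 (Malat1, Miat, Gas5 and Dlx6os1) had both IUGR libraries above both NS libraries in CPM, where 19.7% of all genes did. The fitted log2 differences of the 8 at day 3 ran from -0.31 for Neat1 to 0.71 for Dlx6os1, with a median of 0.25 against 0.01 over all genes. Meningeal and fibroblast genes moved with treatment at day 3, where the 14 genes summed to 517 and 581 CPM in IUGR, against 1388 and 1168 CPM in NS, with a median log2 difference of -1.01. Their part in the members' values was not tested. At week 8 the fitted differences of the 8 ran from -1.08 for Neat1 to 0.11 for Gas5, with a median of -0.27 against 0.02. The standard error at week 8 was 1.08 for Malat1 and 1.70 for Rmst, so that differences of several-fold in these RNAs lay within the error of this fit.

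Set against age in IUGR, Neat1 and Snhg11 had both week 8 libraries above both day 3 libraries (28.1% of all genes), and Sox2ot and Dlx6os1 had both below (37.9%). In NS, Neat1 and Snhg11 had both week 8 libraries above (29.2% of all genes) and Dlx6os1 had both below (32.6%). Among 40 other brain long non-coding RNAs that were tested, 3 passed as higher and 5 as lower at week 8 in IUGR. In NS 3 passed as higher and 3 as lower. The shares of all genes were 9.34% higher and 7.48% lower in IUGR, and 7.7% and 6.44% in NS. The counts in NS were near these shares. H19, an imprinted RNA of fetal tissue, fell to 0.676 and 0.0686 CPM in IUGR and 1.23 and 0.105 CPM in NS at week 8, against 78.1 and 87.0 CPM in IUGR and 96.2 and 125 CPM in NS at day 3 (adjusted p = 0.00845 and 0.00916). Dlx1as, the antisense RNA of Dlx1, fell by 1.34 ± 0.20 in IUGR and by 1.51 ± 0.20 in NS on the log2 scale (adjusted p = 0.00945 and 0.00808). The 2810468N07Rik gene, also named Cerox1, rose by 1.65 ± 0.25 in IUGR and by 1.92 ± 0.25 in NS (adjusted p = 0.00999 and 0.00808). Ptbp2, a neuronal splicing repressor and the only one of 18 fixed neighbours and partners to pass, fell by 0.98 ± 0.24 in IUGR and by 0.99 ± 0.24 in NS (adjusted p = 0.0362 and 0.0395).

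**Figure D4:**
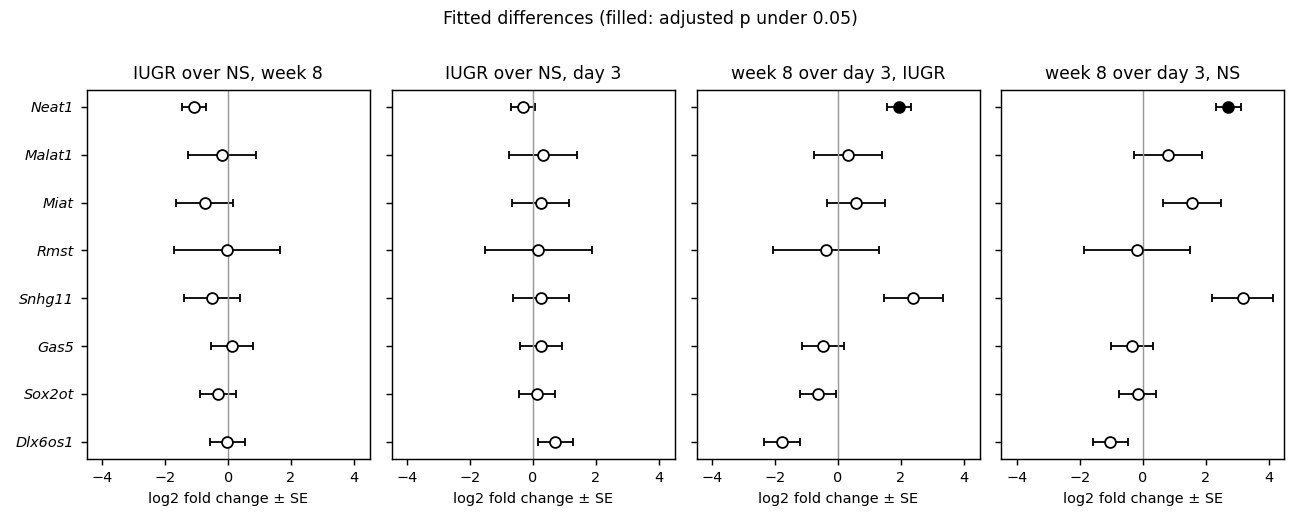
Fitted log2 fold changes with their standard errors for the 8 RNAs in 4 comparisons, from edgeR on all 8 libraries, with filled points where the adjusted p was under 0.05. Neat1 is filled in both comparisons of week 8 over day 3 (1.94 in IUGR and 2.71 in NS), and no point is filled for IUGR over NS.

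The cells around these RNAs changed between the ages as well. Of 18 oligodendrocyte genes, 14 passed as higher at week 8 in IUGR and 13 in NS, of 16 astrocyte genes 12 and 10, and of 12 microglial genes 9 and 8. Of 16 genes of progenitors and immature neurons, 12 passed as lower in IUGR and 11 in NS. Mobp, a myelin protein, rose by 10.11 ± 0.43 in IUGR and by 9.22 ± 0.41 in NS, and Dcx, a protein of migrating neurons, fell by 5.32 ± 0.35 and 5.4 ± 0.35 on the log2 scale (adjusted p = 0.00101 and 0.00113 for Mobp, 0.00188 and 0.00219 for Dcx). In endothelial and mural cells, 1 of 16 genes passed as higher and 1 as lower in IUGR, and 2 as higher in NS. The shares of all genes were 9.34% higher and 7.48% lower in IUGR, and 7.7% and 6.44% in NS. The part of these cell types in the age difference of Neat1 or of the other members was not tested.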

How the data were processed

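The authors deposited a table of read counts per gene symbol for each age, with 24421 genes, and all values here come from these counts. The submitters' processing notes name mm10, HISAT2 2.1.0 and featureCounts 1.6.1 among other tools; settings, annotation and strand handling were not given in the sources used here. Groups come from the treatment and age labels, replicate numbers from the titles. The 8 genes and all gene lists were chosen with earlier results of these data known.

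CPM is the deposited count over the library total, and the table's gene length gave CPM per kilobase. Counts of all 8 libraries were fitted with edgeR 4.0.16 in R 4.3.3 as 4 group means (TMM scaling, default expression filter), tested with the quasi-likelihood F test, two-sided, Benjamini-Hochberg adjusted over 15999 genes, and passed at an adjusted p under 0.05. SE is the log2 fold change over the square root of F. The method was tested on simulated data that had no shift shared by week 8 replicates of the same number, unlike these data. Within-replicate differences and likeness (Pearson's r over all 8 libraries) used log2 values with a pseudocount of 1 CPM. From each list up to 3 passing genes with the smallest p and a mean of at least 1 CPM were eligible for naming, besides the members and 18 partners; of these the text gives those that bear on a member. Alternatives were RLE scaling, no filter, DESeq2 1.42.0, a replicate block, each age alone, totals without Rpph1 and libraries left out. Positions and transcript ends are from GENCODE M21 (GRCm38).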

Additional observations from a re-analysis of the deposited data

How the results depend on the processing

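Replicate numbers are not said to pair animals; replicate differences of IUGR and NS correlated at 0.854 over 15999 genes at week 8 and at -0.075 at day 3. With the replicate block the count of genes passing between ages was 5550 in IUGR and 5049 in NS, against 2691 and 2263 without it, and DESeq2 gave 4354 and 3901. Leaving out 1 library gave 92 to 4069 in IUGR and 51 to 3801 in NS, leaving out both week 8 replicate 2 libraries 6778 and 6201, and leaving out both day 3 replicate 2 libraries 0 and 0. Between treatments, DESeq2 on each age alone called 61 genes at day 3 and 1 at week 8, and with the replicate block 11 and 3. Neat1 was among those 3 (log2 -1.12, adjusted p = 0.0325), with Fn1 and Sned1, matrix genes named after their values were seen; over its 18 alternatives the adjusted p ran from 0.0325 to 1.

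The age difference of Neat1 kept its direction in all 15 alternatives and passed in 9 of them in IUGR (1.43 to 2.32, adjusted p from 0.000109 to 0.363) and in 12 in NS (2.33 to 3.00, 1.72e-08 to 0.331). It was lost in IUGR without either IUGR day 3 library, without either NS day 3 library and without IUGR week 8 replicate 1, and in NS without either NS day 3 library, and in both without both day 3 replicate 2 libraries.

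Other members changed sign with the libraries used. Without both day 3 replicate 2 libraries the day 3 treatment difference was 0.03 for Neat1, -0.50 for Rmst, -0.51 for Snhg11 and -0.20 for Sox2ot, and the age difference of Rmst in IUGR was 0.17. Without both week 8 replicate 2 libraries the week 8 treatment difference was 0.07 for Miat, 0.30 for Snhg11 and 0.06 for Dlx6os1, and the age difference in IUGR and NS was -0.64 and -0.47 for Miat, 0.58 and 0.80 for Rmst and 0.11 and 0.28 for Gas5, and 0.37 in NS for Sox2ot. With the replicate block the week 8 treatment difference was 0.05 for Malat1 and 0.10 for Rmst (0.03 and 0.14 in DESeq2 on that age alone), and the age difference in IUGR and NS was -0.86 and -0.18 for Miat, 0.88 and 0.88 for Rmst and 0.02 and 0.13 for Gas5, and 0.32 in NS for Sox2ot. Of these Miat in IUGR passed as lower (adjusted p = 0.0455). The block also made the age difference pass for Malat1 (1.24 in IUGR and 1.50 in NS, adjusted p = 0.00843 and 0.0043), Snhg11 (1.53 and 1.87, adjusted p = 0.0271 and 0.0125) and Dlx6os1 in IUGR (-1.42, adjusted p = 0.00883). The cause was not tested.

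With 1 library left out, treatment differences at day 3 ran from -0.40 to 0.55 for Rmst, -0.49 to 0.71 for Snhg11 and -0.08 to 0.36 for Sox2ot. At week 8 they ran from -1.98 to 2.14 for Malat1, -1.97 to 1.29 for Miat, -4.06 to 4.57 for Rmst, -1.55 to 1.32 for Snhg11, -0.93 to 1.24 for Gas5, -1.21 to 0.52 for Sox2ot and -0.92 to 0.61 for Dlx6os1. Age differences in IUGR ran from -1.47 to 1.08 for Malat1, -0.65 to 1.22 for Miat, -4.40 to 0.56 for Rmst and -1.52 to 0.10 for Gas5. In NS they ran from -1.54 to 1.66 for Malat1, -0.48 to 2.36 for Miat, -4.81 to 0.79 for Rmst, -1.50 to 0.27 for Gas5 and -1.03 to 0.36 for Sox2ot. A group left with 1 library was assumed to vary like the others. TMM scaling moved a member's CPM by a factor of 0.969 to 1.05 and totals without Rpph1 by 1.00 to 1.08.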
